A study of Homo sapiens with 48 samples.

Results

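TMPRSS2 is 1 gene of the 61815 human genes in the count table, taken by its symbol and followed through all 16 groups of the series. It was picked because its transcript was higher after Mediator kinase inhibition in every line with an active kinase, so the difference between inhibitor and vehicle in those lines is the criterion of choice and is given here as a description, without a test. The gene lies on the minus strand of chromosome 21 (GRCh38, chr21:41464551-41531116), where GENCODE release 29 annotates 11 transcripts, 6 of them protein coding.

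TMPRSS2 encodes a type II transmembrane serine protease, a family of enzymes held in the plasma membrane by a segment near the amino terminus, with the catalytic domain outside the cell. In prostate luminal epithelium its transcription is induced by androgen through upstream enhancers, and in a large share of prostate cancers a rearrangement places the ETS factor ERG under its promoter. It also cleaves the spike and hemagglutinin proteins of respiratory viruses. CDK8 and CDK19 are paralogous kinases of the Mediator complex, which links enhancer-bound factors to RNA polymerase II.

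All 48 libraries came from the castration-resistant prostate cancer line 22Rv1 and its derivatives. Rv1-WT was the parental line and Rv1-Luc a derivative transduced with firefly luciferase; dKO-8 and dKO-19 were CDK8/CDK19 double-knockout cells in which wild-type CDK8 (dKO-8) or wild-type CDK19 (dKO-19) was restored, and kinase-inactive mutants of the same proteins were carried by dKO-8M and dKO-19M. Each line received 0.1% DMSO (vehicle) or the CDK8/19 inhibitor SNX631 at 500 nM for 72 hours in fetal bovine serum (FBS), and Rv1-WT and Rv1-Luc also in androgen-depleted, charcoal-stripped serum (CSS), with 3 libraries from separate cultures in each group. The dKO lines were not grown in CSS, and dKO-8 and dKO-8M descend from knockout cells that carried an empty vector, whereas dKO-19 and dKO-19M do not, so the identity of the kinase and that history cannot be told apart.

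The libraries summed to between 13.23 M and 31.5 M counts (M, mega), with Rv1-WT lowest (at most 18.2 M). TMPRSS2 received 90 to 856 counts per library, which corresponds to a counting error of 10.5% in the lowest library and 3.42% in the highest. Of 10 luminal markers, KRT8 averaged 1717 and KRT18 579 CPM. CPM are counts scaled to 1 M per library, here with library totals corrected for composition by the TMM factors explained below. KLK2 and KLK3 were the lowest of the 10, at 6.84 and 4.69 CPM. The basal markers TP63, KRT5 and KRT14 did not exceed 5 counts in any library. Of 4 neuroendocrine markers, SYP averaged 57.7 CPM, CHGB 23.5 and CHGA 0.732, and INSM1 reached at most 6 counts in a library. The knockouts cannot be checked from transcript level: CDK8 was at 27.7 ± 1.42 CPM in vehicle-treated dKO-19 cells and 26.8 ± 0.470 in Rv1-WT cells (SD, n = 3).

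The study lists a pair of primers for quantitative PCR of TMPRSS2, shown because their position tells which transcripts that assay and the counts have in common.
TMPRSS2-F: cggcttgagttcaagttgac
TMPRSS2-R: taccacagtgatgcctgttc
Both were found in 5 of the 11 annotated transcripts, all protein coding, and enclosed 80 nucleotides. On TMPRSS2-201 the primer named R reads along the mRNA from position 811 to 830 and crosses the junction of exons 7 and 8, whereas the primer named F reads the opposite strand at positions 871 to 890 in exon 9 (chr21:41473469-41473488). The counts sum over all transcripts and do not separate them.

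The level of TMPRSS2 spanned 9.77-fold between group means. Values are CPM scaled with TMM factors (TMM CPM), which correct for library composition through a trimmed mean of log ratios. Under vehicle in FBS, the 3 Rv1-WT libraries held 17.8, 16.9 and 17.5, and the Rv1-Luc libraries 7.12, 7.0 and 6.04. In CSS the vehicle libraries of Rv1-WT held 9.23, 10.2 and 12.1, and those of Rv1-Luc 4.26, 5.28 and 4.16. Each line was lower in CSS than in FBS without overlap, and Rv1-Luc lay below Rv1-WT in both sera. In bulk RNA, a change in every cell and a change in a fraction of the cells cannot be told apart.

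Among the knockout derivatives under vehicle, dKO-8 held 8.06, 8.94 and 7.38 and dKO-19 held 5.61, 4.98 and 6.02. The kinase-inactive dKO-8M held 15.9, 17.3 and 17.2, and dKO-19M 15.6, 15.6 and 15.5. Both kinase-inactive lines thus lay close to Rv1-WT in FBS, and both active lines close to Rv1-Luc.

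With SNX631, Rv1-WT reached 42.2, 45.4 and 46.2 in FBS and 41.0, 41.9 and 38.4 in CSS. Rv1-Luc reached 23.1, 22.2 and 23.8 in FBS and 18.1, 17.9 and 17.0 in CSS. The dKO-8 libraries held 21.3, 19.7 and 18.7 and the dKO-19 libraries 24.5, 24.8 and 23.9. The kinase-inactive dKO-8M held 19.3, 19.3 and 19.5, and dKO-19M 15.97, 18.1 and 16.1. In all 6 settings with an active kinase the inhibitor libraries lay above the vehicle libraries without overlap, which is what the gene was picked for.

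**Figure D1:**
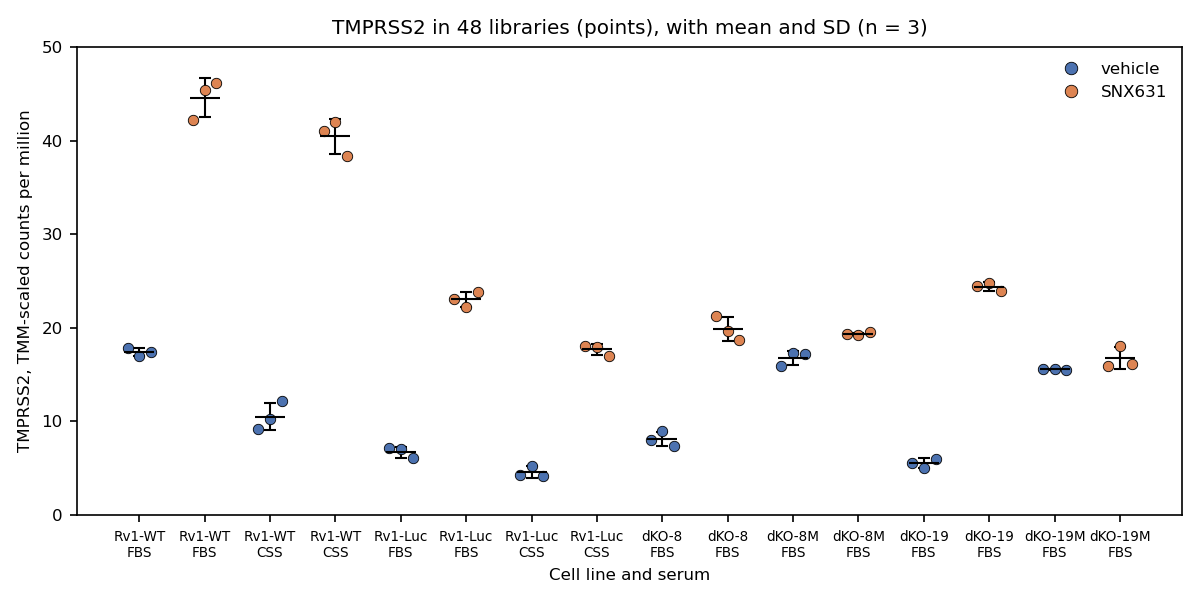
TMPRSS2 in TMM CPM (vertical axis, linear from 0) in each library, by line and serum, with blue points for vehicle and orange for SNX631; horizontal marks and bars are the mean and SD of 3 libraries. Rv1-WT with SNX631 was highest (44.6 in FBS, 40.5 in CSS) and Rv1-Luc in CSS with vehicle lowest (4.56).

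Ordered by group mean, Rv1-WT with SNX631 came first in FBS (44.6 ± 2.11, SD, n = 3) and then in CSS (40.5 ± 1.84). After them came dKO-19 with SNX631 (24.4 ± 0.436) and Rv1-Luc in FBS with SNX631 (23.0 ± 0.812). The middle of the order held 7 groups between 15.6 and 19.9, among them all 4 groups of the kinase-inactive lines and Rv1-WT in FBS with vehicle. The lowest were Rv1-WT in CSS with vehicle (10.5 ± 1.47), dKO-8 (8.13 ± 0.785), Rv1-Luc in FBS (6.72 ± 0.595), dKO-19 (5.54 ± 0.524) and Rv1-Luc in CSS (4.56 ± 0.619), all with vehicle. Of the 15 neighbouring pairs in this order, 5 overlapped in their libraries: dKO-8 with SNX631 and dKO-8M with SNX631, Rv1-Luc in CSS with SNX631 and Rv1-WT in FBS with vehicle, the latter and dKO-8M with vehicle, that and dKO-19M with SNX631, and dKO-19 and Rv1-Luc in CSS, both with vehicle.

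Androgen depletion was the comparison that asked whether TMPRSS2 followed androgen supply. Differences were tested with the quasi-likelihood test of edgeR across 20022 genes, with the false discovery rate (FDR) adjusted over all of them, and a gene was called when its FDR was below 0.01 and it changed by more than 1.5-fold, thresholds taken from the study. In vehicle-treated Rv1-WT cells TMPRSS2 fell by 0.72 on the log2 scale in CSS (SE 0.09, FDR 2.68e-10), or 1.65-fold, and was called, in a comparison that called 10.9% of all genes. In Rv1-Luc the log2 difference was -0.57 (SE 0.10, FDR 6.36e-05), or 1.48-fold lower, short of the fold limit, where 1.48% of genes were called. Without Rv1-Luc FBS vehicle replicate 3 it was -0.63, and without Rv1-Luc CSS vehicle replicate 2 it was -0.68, both past the limit. The effect of depletion did not differ detectably between the lines, with a difference of 0.15 (95% interval -0.12 to 0.43, FDR 0.422), although 8.65% of genes were called in that comparison.

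The vehicle libraries above are also the baseline of the contrast of choice in these lines, and the inhibitor libraries below its other arm. The depletion comparisons, under vehicle and under SNX631, are therefore not independent of that contrast. Under SNX631, the log2 difference between CSS and FBS was -0.14 in Rv1-WT (SE 0.06, 95% interval -0.27 to -0.01, FDR 0.0731) and was not called, where 7.82% of genes were. In Rv1-Luc under SNX631 it was -0.38 (SE 0.07, FDR 6.75e-05), 1.30-fold lower and short of the fold limit, in a comparison with 1.51% of genes called. The excess of the inhibitor's difference in CSS over that in FBS, a description since it holds the contrast the gene was picked on, was 0.58 (SE 0.11) in Rv1-WT and 0.19 (SE 0.13) in Rv1-Luc.

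Under vehicle, of 30 other genes listed as induced by androgen, 10 fell in the parental line and 10 in Rv1-Luc, where 4.8% and 0.814% of all genes fell, with medians of -0.43 and -0.40 against 0.01 for all genes in both. None was called higher in either line by edgeR or DESeq2, and at an unadjusted p under 0.05 the higher genes numbered 0 and 2, and 6.07% and 0.669% of all genes were called higher. STEAP1, a metalloreductase-family membrane protein, fell by 1.69 (SE 0.07) in Rv1-WT and 1.54 (SE 0.06) in Rv1-Luc. SLC45A3, encoding prostein, fell by 1.43 (SE 0.09) and 1.25 (SE 0.07). FKBP5, a chaperone of steroid receptors, fell by 0.84 (SE 0.04) and 0.86 (SE 0.04). The drop of TMPRSS2 in Rv1-WT was thus smaller than that of STEAP1 or SLC45A3 and near that of FKBP5.

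ERG reached at most 11 counts in any library and was below the filter on low counts. Of 16 measured factors that act at prostate enhancers, 5 rose in Rv1-WT on depletion under vehicle (ELF3, ETV5, NR3C1, ETV1 and ETV4) and 1 fell. Of all genes in that comparison, 6.07% rose and 4.8% fell. In Rv1-Luc under vehicle, 2 of the 16 rose and 1 fell, against 0.669% and 0.814% of all genes.

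The lines with inactive kinase were compared with their active counterparts to ask whether loss of catalytic activity by mutation went with a difference in TMPRSS2. The active-line vehicle libraries in these comparisons are also the baseline of the contrast on which the gene was picked, so they are not independent of it. The TMPRSS2 level of dKO-8M exceeded that of dKO-8 by 1.05 on the log2 scale (SE 0.08, FDR 4.42e-16), or 2.07-fold, in a comparison that called 7.04% of genes. The level of dKO-19M exceeded that of dKO-19 by 1.48 (SE 0.09, FDR 6.08e-21), or 2.798-fold, with 7.63% of genes called. Each kinase was represented by 1 active and 1 inactive line, so mutation and line cannot be told apart. CDK8 transcript went from 68.7 TMM CPM in dKO-8 to 123 in dKO-8M, and CDK19 transcript from 510 in dKO-19 to 332 in dKO-19M, and their part in the result was not tested.

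SNX631 in the kinase-inactive lines, which the rule did not use, gave a log2 difference of 0.21 in dKO-8M (SE 0.07, 95% interval 0.06 to 0.35, FDR 0.227) and 0.11 in dKO-19M (SE 0.07, 95% interval -0.04 to 0.25, FDR 0.544). Neither was called, in comparisons that called 0.015% and 0.0899% of genes. All 3 inhibitor libraries lay above all 3 vehicle libraries in both lines. The SNX631 difference of the active line exceeded that of its inactive counterpart by 1.09 (SE 0.11) for CDK8 and 2.03 (SE 0.11) for CDK19, which are descriptions because they hold the contrast of choice. Between the inactive lines, the SNX631 difference in dKO-19M minus that in dKO-8M was -0.10 (95% interval -0.31 to 0.10, FDR 0.848). No gene was called in that comparison by edgeR or DESeq2 (0%), and 1690 had an unadjusted p under 0.05.

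In the active settings, for description, the log2 difference between SNX631 and vehicle was 1.36 (SE 0.07) in Rv1-WT in FBS and 1.94 (SE 0.08) in CSS, and 1.77 (SE 0.08) and 1.96 (SE 0.09) in Rv1-Luc. It was 1.30 (SE 0.08) in dKO-8 and 2.13 (SE 0.09) in dKO-19, so the folds ran from 2.47 to 4.39. The shares of all genes called in these settings, in the same order, were 2.38%, 4.22%, 3.69%, 4.07%, 1.68% and 3.42%. The difference was larger in dKO-19 than in dKO-8 by 0.83 (SE 0.12), and the vehicle level, which enters it, was lower in dKO-19 (5.54 against 8.13 TMM CPM).

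**Figure D2:**
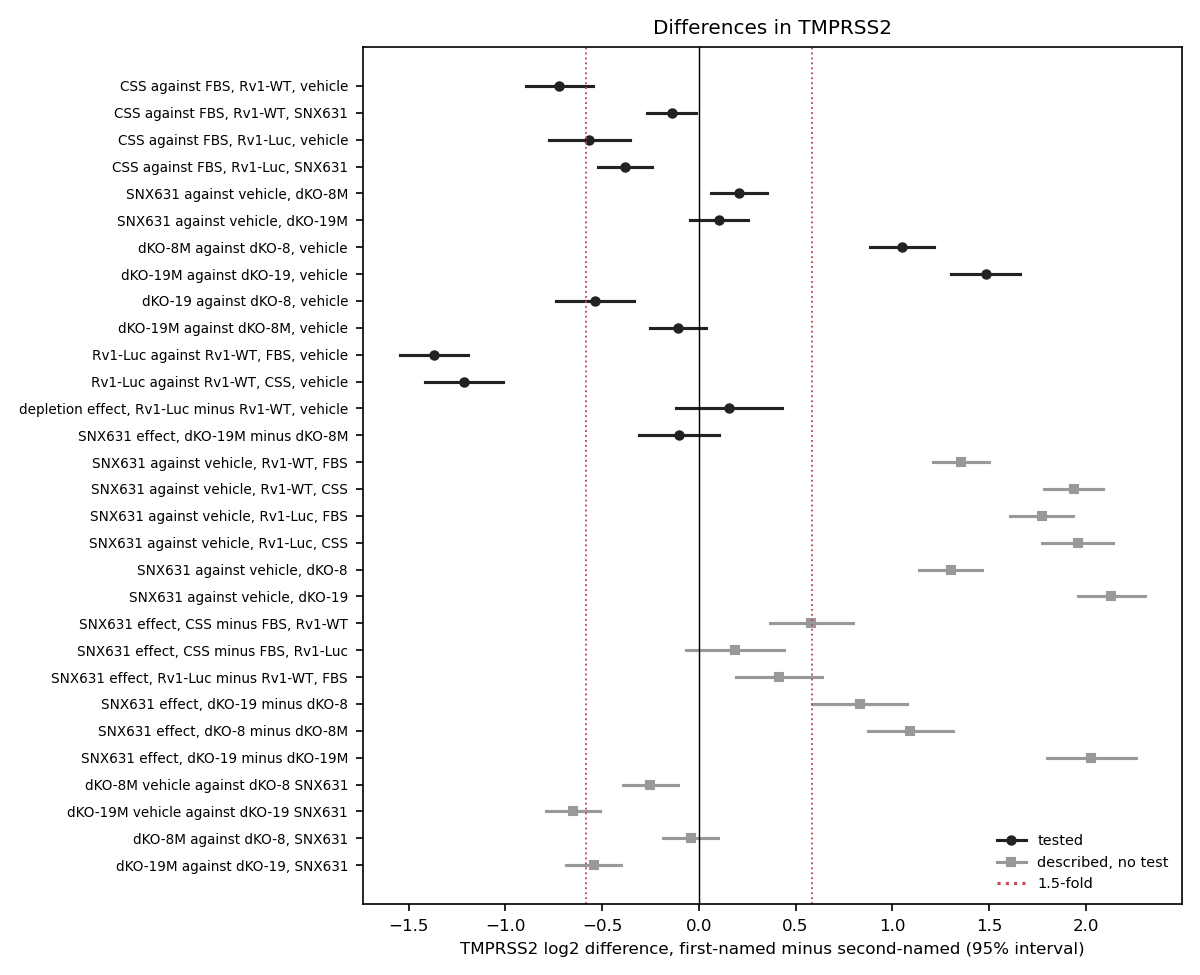
Log2 difference in TMPRSS2 (horizontal axis) for each comparison, first-named minus second-named group, with 95% intervals; black circles were tested and grey squares are descriptions without a test, and dotted lines mark 1.5-fold. The kinase-inactive lines with SNX631 sit at 0.21 and 0.11, and the 6 active settings between 1.30 and 2.13.

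Inhibition and mutation were set side by side in each pair of lines. Vehicle-treated dKO-8M was lower than SNX631-treated dKO-8 by a log2 difference of -0.25 (SE 0.07), and vehicle-treated dKO-19M than SNX631-treated dKO-19 by -0.65 (SE 0.07). With SNX631 in both, dKO-8M and dKO-8 differed by -0.04 (95% interval -0.18 to 0.10), with overlapping libraries, and dKO-19M and dKO-19 by -0.54 (95% interval -0.69 to -0.40), without overlap. These are descriptions, since the inhibitor libraries of the active lines were used to pick the gene.

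Between the kinases, TMPRSS2 was lower in dKO-19 than in dKO-8 under vehicle, with a log2 difference of -0.54 (SE 0.10, FDR 2.06e-05), or 1.45-fold, short of the fold limit in a comparison that called 6.49% of genes. Without dKO-8 FBS vehicle replicate 3 it was -0.61, and without dKO-19 FBS vehicle replicate 3 it was -0.60, both past the limit. Between dKO-19M and dKO-8M it was -0.11 (95% interval -0.25 to 0.04, FDR 0.265) and was not called, where 7.18% of genes were. The dKO-19 and dKO-8 vehicle libraries are also a baseline of the contrast of choice, so their difference is not independent of it.

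Rv1-Luc, the luciferase derivative, was compared with its parental line under vehicle. Those vehicle libraries are also the baseline of the contrast of choice, so the comparison is not independent of it. TMPRSS2 was lower in Rv1-Luc by a log2 difference of -1.37 in FBS (SE 0.09, FDR 6.50e-20), or 2.58-fold, and -1.21 in CSS (SE 0.10, FDR 4.92e-16), or 2.32-fold. These lines differed widely, with 17.8% of genes called in FBS and 31.1% in CSS. KLK4, a kallikrein protease, was lower in Rv1-Luc by -1.85 (SE 0.07) in FBS, whereas the median of the 30 androgen-induced genes was -0.01. Of those 30, 3 were higher and 6 lower in Rv1-Luc in FBS, against 8.63% and 9.16% of all genes.

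Among the 30 androgen-induced genes, members moved both ways with the kinase mutations. From dKO-8 to dKO-8M, 4 of 30 rose and 5 fell, with a median of -0.01, while 2.95% of all genes rose and 4.1% fell. From dKO-19 to dKO-19M, 2 rose and 11 fell, with a median of -0.21, while 3.75% of all genes rose and 3.88% fell. KLK3, encoding prostate-specific antigen, fell by 2.25 (SE 0.26) and 3.52 (SE 0.22), from 2.64 to 0.539 and from 5.87 to 0.506 TMM CPM, and its paralog KLK2, with which it can share reads, fell by 1.54 (SE 0.36) and 3.33 (SE 0.32). KLK4 rose by 1.54 (SE 0.13) in the first pair and fell by 3.21 (SE 0.11) in the second. Outside this list, of the 16 factors at prostate enhancers, 2 rose and 1 fell in the first pair and 5 rose in the second. HOXB13, a homeobox factor of prostate epithelium, was among those that rose in both pairs, by 0.68 (SE 0.04) and 0.62 (SE 0.04).

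With SNX631 in the 6 active settings, 3 to 7 of the 30 rose and 1 to 4 fell. Of all genes, in the order of settings above, 1.74%, 2.98%, 2.34%, 2.45%, 0.634% and 1.89% rose and 0.634%, 1.24%, 1.35%, 1.62%, 1.05% and 1.53% fell. ELL2, an elongation factor, and KLK4 were called higher in all 6, and SLC45A3 was called lower in all 6. The log2 difference of KLK4 ran from 0.61 (SE 0.07) in dKO-19 to 1.71 (SE 0.07) in Rv1-Luc in CSS, below that of TMPRSS2 in each setting. None of the 30 was called by edgeR or DESeq2 in dKO-8M or dKO-19M, where 6 and 10 had an unadjusted p under 0.05. Of all 20022 genes, 0.015% and 0.0899% were called in these lines, and 1906 and 2948 had an unadjusted p under 0.05.

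**Figure D3:**
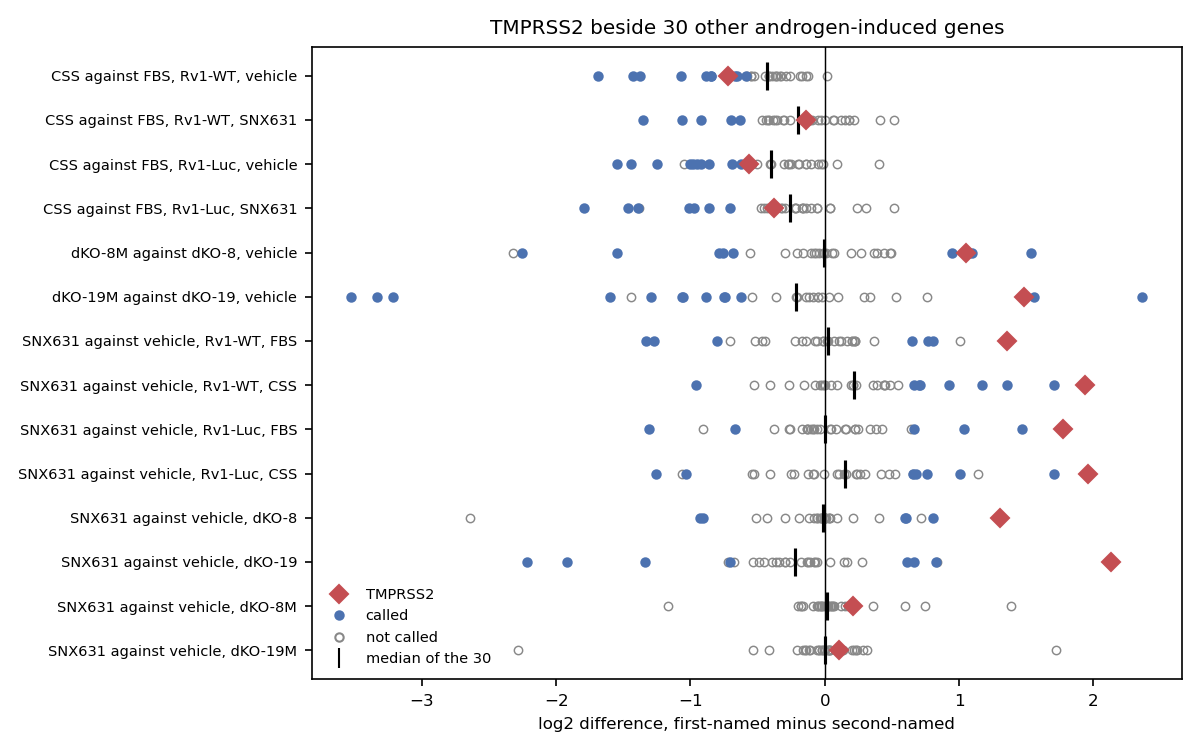
Log2 difference (horizontal axis) of TMPRSS2 (red diamonds) and 30 other androgen-induced genes (circles, filled where called) in 14 comparisons, with black bars at the median of the 30. On depletion under vehicle TMPRSS2 lies at -0.72 in Rv1-WT and -0.57 in Rv1-Luc against medians of -0.43 and -0.40, and in the 6 active settings between 1.30 and 2.13.

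Among the type II transmembrane serine proteases, 16 other genes were listed and 5 passed the filter on low counts. Levels between genes are compared per kilobase of annotated exon. TMPRSS2 averaged 2.98 TMM CPM per kilobase over the 16 groups, HPN (hepsin) 4.50 and ST14 (matriptase) 26.1, whereas TMPRSS4, TMPRSS5 and TMPRSS9 did not exceed 0.211. The 11 below the filter reached at most 12 counts in a library. ST14 was called in none of the comparisons, and its log2 difference between SNX631 and vehicle lay between -0.05 and 0.17. HPN fell from dKO-8 to dKO-8M by 1.44 (SE 0.11), opposite to TMPRSS2, and was not called from dKO-19 to dKO-19M under vehicle. It was also not called with SNX631 against vehicle in any line or serum. With SNX631 in both lines, HPN was also lower in dKO-8M (5.93 TMM CPM) than in dKO-8 (16.2), by a log2 difference of -1.46 (SE 0.11).

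Of 8 measured inhibitors, substrates and partners, SPINT1 and SPINT2, which encode Kunitz-type inhibitors of these proteases, were called in none of the comparisons and averaged 168 and 267 TMM CPM. F2RL1, encoding a protease-activated receptor, was called in none either. HGF, a growth factor that such proteases activate, was lower in Rv1-Luc than in Rv1-WT by -3.10 (SE 0.11) in FBS under vehicle, and MET, its receptor, by -1.27 (SE 0.11).

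Of the 10 nearest protein-coding genes, 5 on each side, none was called by edgeR or DESeq2 in the depletion comparisons, with 3 or 4 in each at an unadjusted p under 0.05. In Rv1-WT with vehicle and SNX631, and in Rv1-Luc with vehicle and SNX631, 10.9%, 7.82%, 1.48% and 1.51% of all genes were called. In the same order, 10060, 9483, 5159 and 5055 of the 20022 genes had an unadjusted p under 0.05. From dKO-8 to dKO-8M, BACE2, a protease, and C2CD2 rose and UMODL1 fell, and from dKO-19 to dKO-19M BACE2 and C2CD2 rose, where 2.95% of all genes rose and 4.1% fell in the first pair and 3.75% and 3.88% in the second. BACE2 rose by 0.75 (SE 0.06) and 0.73 (SE 0.06). With SNX631 it rose in Rv1-Luc only among the active settings by this call, by 1.00 (SE 0.06) in FBS and 0.90 (SE 0.06) in CSS, and the difference between settings was not tested for it. MX1, an interferon-induced GTPase, also rose in Rv1-Luc in CSS, by 1.01 (SE 0.17), where 2.45% of all genes rose. In dKO-19, C2CD2 fell by 0.78 (SE 0.17) and UMODL1 by 0.66 (SE 0.18) with SNX631, where 1.53% of all genes fell.

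The genes whose pattern was most like TMPRSS2 were found by Pearson correlation of log2 TMM CPM over the 16 group means, among 14061 genes averaging 1 CPM or more. The groups share lines, and the 6 SNX631 differences that chose TMPRSS2 are part of them, so the values are descriptions. EDN2, encoding the vasoactive peptide endothelin 2, came first (r = 0.962), then PDLIM5 (0.884), TTC26 (0.855), ZMYM1 (0.853) and LINC01123 (0.833). ADAT1, SAP30, CRABP1, CTSL and ARHGAP6 followed, between 0.830 and 0.816. The lowest were NUDT14 (-0.887) and THOC6 (-0.886), then THAP2, ARMC5 and ZNF579, between -0.870 and -0.862. EDN2 ran from 3.45 TMM CPM in dKO-19 with vehicle to 30.8 in Rv1-WT in FBS with SNX631.

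Over the 8 vehicle groups alone, genes with a pattern close to that of TMPRSS2 included GNE (r = 0.984), ZBED5-AS1 (0.962) and PDLIM5 (0.945), and EDN2 had r = 0.924. Over all 16 groups GNE had r = 0.552. In dKO-19, PDLIM5, encoding a PDZ and LIM domain protein, went from 28.8 to 40.4 TMM CPM with SNX631, against 5.54 to 24.4 for TMPRSS2.

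**Figure D4:**
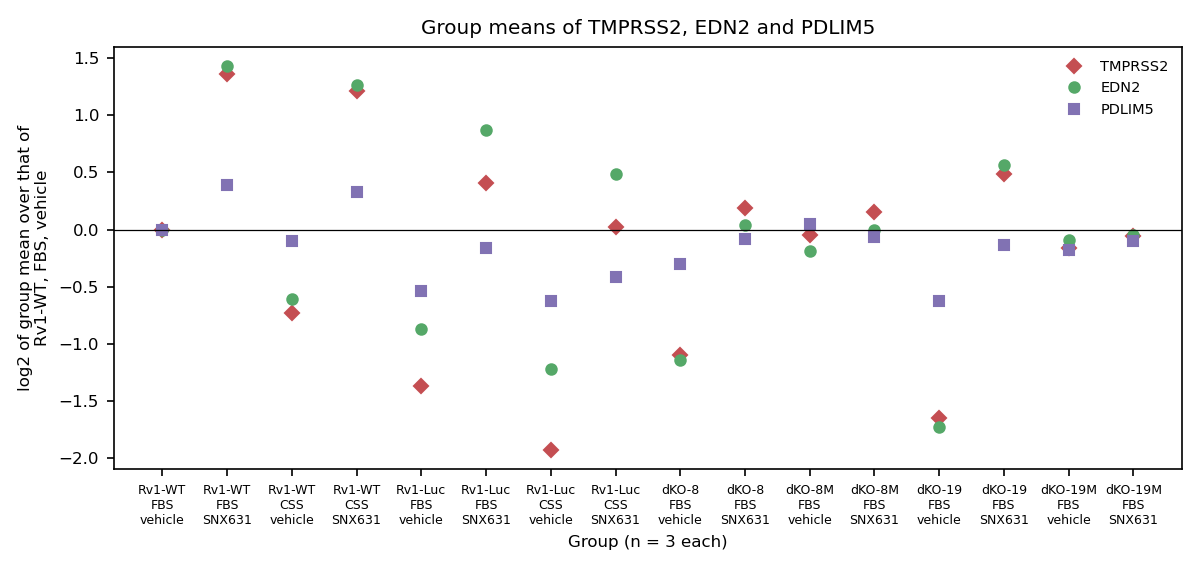
Group means of TMPRSS2, EDN2 and PDLIM5 on a log2 axis relative to Rv1-WT in FBS with vehicle, by line, serum and treatment (n = 3 each). EDN2 (r = 0.962) and PDLIM5 (r = 0.884) are plotted beside TMPRSS2, and PDLIM5 covers a narrower range than either.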

How the data were processed

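Gene-level counts of 48 RNA-seq libraries (3 per group, 16 groups) were analysed. The submitters' processing notes name FastQC, cutadapt 2.8, STAR 2.7.2b and featureCounts of Subread 2.0.3, with GRCh38.p13 and GRCm39; the annotation release and strand setting are not given in the sources used here. The authors deposited estimated counts per gene made with these tools (expected counts, not all whole), of which 81.6% of the nonzero ones are whole within 1e-06; TMPRSS2 was whole in every library. Counts were rounded, ties upward, and 2 transgene entries were left out. Groups came from the sample labels.

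All libraries entered 1 edgeR 4.0.16 quasi-likelihood fit with TMM scaling, after filterByExpr by group (20022 genes kept), in R 4.3.3 with limma 3.58.1. Contrasts of group means were two-sided, with Benjamini-Hochberg adjustment over all genes, and called when FDR was below 0.01 and the change above 1.5-fold. Standard errors were the absolute log2 difference over the square root of the F statistic. The procedure was tested on counts simulated for the Rv1-WT depletion comparison under vehicle, with 50 genes changed at each fold. In the first draw, of genes averaging over 20 counts (18828 genes in the fit), it called 96% of 2-fold increases, 86% of 2-fold decreases and 42% of 1.5-fold increases. Because the decreases fell short of 90%, a draw of genes over 100 counts, nearer to TMPRSS2, was added (18831 genes), which gave 100%, 100% and 52%. Every simulated gene had the same spread between replicates, a coefficient of variation of 4.2% beyond counting. Genes that were not picked did not differ between groups. Recovery at the spread of the real libraries was not tested. Alternatives were DESeq2 1.42.0, other scalings, no filter, fewer libraries, a replicate block and left-out libraries. Same-numbered libraries correlated in their deviations from group means by -0.08 to 0.23 over 22 pairs of groups, and in none were all 3 above 0.1, so numbers were not treated as pairs. Replicates of 1 group differed by more than sampling noise (chi-square per degree of freedom 1.27 to 15.99). The highest values, 15.99 and 15.45, were for dKO-19M vehicle replicate 1 against replicates 2 and 3, which gave 1.42 between them. That library enters the dKO-19M vehicle comparisons.

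The gene and the lists were chosen with earlier results of these data known. Besides TMPRSS2, the genes that could be named were members of the lists, the 10 most and 5 least similar genes over group means, and the 5 nearest coding genes on each side, and over the vehicle groups the text gives some of the similar genes. Locus and transcripts are from GENCODE 29, neighbours from the RefSeq gene table, and primers from the study's supplement. Comparisons that share libraries are not independent. Intervals are 95% and counting errors cover counting only. Some genes of these lists are not reported here by name.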

Additional observations from a re-analysis of the deposited data

How the results depend on the processing

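TMPRSS2 kept its direction in every comparison, with all libraries, under the alternatives run (other scalings, no filter on low counts, DESeq2, only the libraries compared, a replicate block, a looser threshold and rounding of ties to the even number), and 220 of 224 values kept their side of the threshold or moved by less than the spread between replicates. The other 4 newly passed: dKO-19 against dKO-8 under vehicle with library size only (-0.61), and, at FDR under 0.05 with no fold limit, that comparison (-0.54) and CSS against FBS in Rv1-Luc with vehicle (-0.57) and with SNX631 (-0.38). With 1 library left out, CSS against FBS in Rv1-Luc with vehicle ran from -0.68 to -0.51 and dKO-19 against dKO-8 from -0.61 to -0.46, both crossing 1.5-fold. SNX631 against vehicle in CSS ran from 1.85 to 2.06 in Rv1-WT and 1.90 to 2.07 in Rv1-Luc, and its excess over FBS from 0.49 to 0.71 and 0.13 to 0.29. The small difference of dKO-8M against dKO-8 with SNX631 ran from -0.08 to 0.01, crossing 0. The replicate block gave -0.72 for CSS against FBS in Rv1-WT with vehicle, changed no call and no count of called genes by over 1.5 times. The rounding of ties, chosen after seeing the data, left 20009 genes in place of 20022, altered no TMPRSS2 count and changed no call. Counts of called genes moved by over 1.5 times at FDR under 0.05 with no fold limit in 29 comparisons (97 to 13401, against 3 to 6220), without the filter in 5 (6 to 74, against 0 to 37) and with only the libraries compared in 6 (1 to 298, against 3 to 302). The threshold with no fold limit takes in every gene of the stricter call, so its counts cannot be lower. The cause of the shifts without the filter and with only the libraries compared was not tested. In the shallowest library for TMPRSS2, 90 counts limit the precision to 10.5%.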
